A study of Mus musculus with 12 samples.

Results

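The genes described here are 10 histone lysine demethylase genes of the mouse, Kdm1a, Kdm2a, Kdm2b, Kdm3a, Kdm3b, Kdm4a, Kdm4b, Kdm5a, Kdm5b and Kdm6b, taken by symbol from a table of 24493 gene symbols. All 10 were in the table, and all 10 passed the filter on low values that left 13662 genes to test (3 or more libraries with a TPM of 1 or higher). TPM, the unit of the table, is corrected for transcript length and for the total of each library, so levels can be compared between genes. RNA was sequenced from 12 libraries of the mouse pancreatic tumour cells named 6649c2, grown under the skin as tumours and then sorted, with C57BL/6 as the labelled strain and 3 libraries for each of 4 genotype labels. WT cells carried no labelled knockout, and EgfrKO, Klf5KO and Smad4KO cells were labelled as knockouts of Egfr, the receptor of epidermal growth factor, Klf5, a transcription factor that binds DNA through zinc fingers, and Smad4, which carries signals of the TGF-beta and BMP receptors into the nucleus. The labels name no treatment, age or time, and do not say whether a knockout is a single clone, how the knockouts were made, how cells were gated or whether replicates came from separate animals, and all p-values refer to the spread of these libraries alone, part or all of which may be technical. The study's paper places Kdm3a upstream of Klf5, Smad4 and Egfr, and the comparison of each knockout with WT asks the opposite question, whether the transcripts of Kdm3a and of its relatives differ when a gene placed downstream is disrupted. No library here carries a Kdm3a knockout label.

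Histone lysine demethylases remove methyl groups from lysines in the tails of histones, and so reverse marks that other enzymes write. Kdm1a (also called LSD1) does this with a flavin cofactor on H3K4, in a complex with CoREST and histone deacetylases. The other members carry a JmjC domain and need iron, oxygen and 2-oxoglutarate. Kdm2a and Kdm2b act on H3K36 and bind unmethylated CpG islands, Kdm3a and Kdm3b on mono- and dimethylated H3K9, Kdm4a and Kdm4b on trimethylated H3K9 (Kdm4a also on H3K36), Kdm5a and Kdm5b on H3K4, and Kdm6b on H3K27. H3K9 and H3K27 methylation marks silent chromatin, and H3K4 methylation marks promoters and enhancers. Kdm3a and Kdm4b are known from other work as genes induced by low oxygen through HIF, and Kdm6b as a gene induced by inflammatory signals.

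Promoter windows, from 250 bases before to 50 bases after a transcript start, were read for the members from RefSeq's annotation of GRCm38.p6 (mm10), and 10 windows of 5 members (Kdm1a, Kdm2b, Kdm3a, Kdm4a and Kdm5b) were found. The windows of Kdm3a are shown because Kdm3a is the gene that the paper places upstream, and that of Kdm1a because its level moved in opposite directions in a pair of the knockouts. All are written 5′ to 3′ on the strand of the gene, and capitals mark CACCC or its reverse complement GGGTG, letters of the CACCC box that KLF factors are known to bind.
Kdm3a, first start, chr6:71632868-71633167, minus strand: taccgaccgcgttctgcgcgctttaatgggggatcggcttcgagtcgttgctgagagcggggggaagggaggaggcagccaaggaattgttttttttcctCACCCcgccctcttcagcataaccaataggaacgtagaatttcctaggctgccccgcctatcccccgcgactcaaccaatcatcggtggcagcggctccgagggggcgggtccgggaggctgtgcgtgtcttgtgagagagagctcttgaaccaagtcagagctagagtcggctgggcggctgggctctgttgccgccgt
Kdm3a, second start, chr6:71632637-71632936, minus strand, whose first 69 bases are the last 69 of the window above: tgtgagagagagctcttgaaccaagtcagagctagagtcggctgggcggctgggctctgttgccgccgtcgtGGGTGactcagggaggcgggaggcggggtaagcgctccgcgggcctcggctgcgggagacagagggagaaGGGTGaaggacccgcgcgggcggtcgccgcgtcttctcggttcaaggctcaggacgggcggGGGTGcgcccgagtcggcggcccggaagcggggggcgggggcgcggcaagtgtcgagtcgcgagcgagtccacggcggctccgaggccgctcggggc
Kdm3a, a start within the gene, chr6:71609090-71609389, minus strand: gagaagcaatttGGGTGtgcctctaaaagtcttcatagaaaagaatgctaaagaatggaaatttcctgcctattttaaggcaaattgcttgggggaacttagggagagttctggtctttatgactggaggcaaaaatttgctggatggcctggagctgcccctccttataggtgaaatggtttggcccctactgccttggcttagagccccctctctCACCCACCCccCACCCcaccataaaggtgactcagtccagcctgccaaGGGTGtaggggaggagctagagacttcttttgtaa
Kdm1a, chr4:136602674-136602973, minus strand: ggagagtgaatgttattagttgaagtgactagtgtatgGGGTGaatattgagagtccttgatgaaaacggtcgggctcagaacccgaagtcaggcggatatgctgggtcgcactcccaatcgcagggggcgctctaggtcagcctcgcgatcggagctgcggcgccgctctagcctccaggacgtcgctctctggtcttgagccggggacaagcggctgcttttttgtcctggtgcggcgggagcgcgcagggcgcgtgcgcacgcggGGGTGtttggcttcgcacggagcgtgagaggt
CACCC in either orientation occurred 1, 3 and 5 times in the Kdm3a windows and 2 times in that of Kdm1a, and 57.5% of all 32851 windows in the table hold it at least once. The letters ACGTG, a core that HIF is known to bind, were in none of the 3 Kdm3a windows and in 19.6% of all windows, and GCGTG was in the first Kdm3a window, in the Kdm1a window and in 32.4% of all. The AP-1 motif TGANTCA, which is its own reverse complement, was in the second and the internal Kdm3a window and in 7.81% of all, and CAGAC, a SMAD-binding core, was in none of the 3 and in 49.6% of all. Each motif was searched on both strands, and a match is a description of these letters only.

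In WT, Kdm1a was the most abundant member and Kdm2b the least, both by mean TPM. Kdm1a (chromosome 4, 136550540 to 136602723 in GENCODE M21, GRCm38) was at 82.3 ± 1.34 TPM (SD, n = 3), or 22.6% of the summed TPM of the 10 members. Kdm3a (chromosome 6, 71588972 to 71632990) followed at 60.9 ± 5.21 TPM and 16.7% of the sum. Kdm2a (chromosome 19, 4314419 to 4398285) was at 43.5 ± 2.27, Kdm6b (chromosome 11, 69398508 to 69413675) at 42.6 ± 4.61 and Kdm4b (chromosome 17, 56326062 to 56402870) at 33.1 ± 0.48 TPM. Kdm4a (chromosome 4, 118136957 to 118180043) was at 25.1 ± 1.71, Kdm5b (chromosome 1, 134560171 to 134635285) at 23.9 ± 1.37, Kdm5a (chromosome 6, 120364124 to 120444574) at 20.9 ± 1.35, Kdm3b (chromosome 18, 34777047 to 34838660) at 20.6 ± 1.1 and Kdm2b (chromosome 5, 122870665 to 122989823) at 12.1 ± 0.56 TPM. Kdm3a was thus more abundant per length than its paralogue Kdm3b in WT, at a mean ratio of 2.95 ± 0.20. Exons of Kdm2b share 627 bases with Rnf34 on the other strand and those of Kdm5a 251 bases with Ccdc77, those of Kdm6b 286 bases with the antisense RNA Kdm6bos and those of Kdm3b 3468 bases with Gm26538, a noncoding RNA on the other strand. Whether the counting used strand is not stated, so the values of these 4 genes are uncertain to that extent.

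The libraries were checked by the targeted genes and by markers before the members were compared. Egfr was at 32.7% of its WT mean TPM in EgfrKO and Smad4 at 40.7% in Smad4KO, each with an exact two-sided permutation p = 0.1, the smallest that 3 against 3 libraries allow, while Klf5 was at 83.6% in Klf5KO (exact permutation p = 0.2), so gene-level TPM does not check the Klf5KO label and those libraries are called the Klf5KO-labelled libraries or Klf5KO. Egfr was also at 52.9% of WT in Klf5KO and 60.7% in Smad4KO, and Klf5 at 75.7% in EgfrKO, each called lower than WT (limma adjusted p = 0.00094, 0.0060 and 0.0076). Klf5 was called lower than WT in Klf5KO too (log2 fold change -0.25, limma adjusted p = 0.041, and -0.60 with 0.00035 after median-of-ratios scaling). The mean of Klf5 was lower in EgfrKO than in Klf5KO on the deposited values, and higher after that scaling (85.1 and 81.4). Smad4 was called lower than WT in EgfrKO (84.8% of WT, limma adjusted p = 0.017) and higher in Klf5KO (127%, 0.00095). After that scaling the Smad4 differences were -0.38 (limma adjusted p = 0.00025) and -0.01 (0.84). Against WT, 4 of 8 tumour epithelium markers were higher and 2 lower in EgfrKO, 1 higher and 6 lower in Klf5KO, and 7 higher and 1 lower in Smad4KO (4 and 3, 1 and 7, and 7 and 1 after median-of-ratios scaling of the libraries), with sums of 5564 to 6044 TPM in WT, 7436 to 7946 in EgfrKO, 4701 to 5232 in Klf5KO and 8099 to 9069 in Smad4KO. The keratin Krt8 was at 1820 to 3426 TPM in all libraries, the keratin Krt7 at 3.67 to 6.33 TPM in Klf5KO and 58.0 to 166 elsewhere, and the surface marker Epcam at 0.31 to 1.36 TPM in EgfrKO and Klf5KO and 11.4 to 41.0 in WT and Smad4KO. The median fold change over all tested genes, on the log2(TPM + 1) scale, lay above 0, at 0.14 in EgfrKO, 0.31 in Klf5KO and 0.10 in Smad4KO against WT. Values after median-of-ratios scaling, which moves those medians to 0.00, -0.01 and 0.00, are therefore given beside the deposited values. This scaling turned the split of all called genes from 4277 higher and 1643 lower to 2462 and 3029 in EgfrKO, from 7536 and 1518 to 3357 and 3755 in Klf5KO, and from 4400 and 2381 to 3427 and 3381 in Smad4KO. Calls are limma tests over all 13662 genes at an adjusted p of at most 0.05, and the 3 comparisons share the WT libraries.

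Kdm3a, which removes methyl groups from H3K9, was lower in EgfrKO and Klf5KO than in WT, to about 84% of the WT level. It was at 55.1, 62.7 and 65.0 TPM in the WT libraries, at 52.8, 51.1 and 48.8 in EgfrKO, at 50.3, 55.5 and 47.5 in Klf5KO and at 58.1, 59.3 and 52.4 in Smad4KO. Every EgfrKO library lay below every WT library, while 1 Klf5KO library and 2 Smad4KO libraries lay within the WT range. The mean was 83.5% of WT in EgfrKO (log2 fold change -0.25 ± 0.08 SE, limma adjusted p = 0.021), 83.9% in Klf5KO (-0.25 ± 0.08, adjusted p = 0.014) and 92.9% in Smad4KO (-0.10 ± 0.08, adjusted p = 0.30). After median-of-ratios scaling the differences were -0.40 (adjusted p = 0.0013), -0.60 (5.8e-05) and -0.21 (0.036), so that all 3 comparisons passed the threshold. On the deposited values the EgfrKO call was lost without WT replicate 2, WT replicate 3, EgfrKO replicate 2 or EgfrKO replicate 3 (adjusted p = 0.067, 0.086, 0.053 and 0.066), and the Klf5KO call without WT replicate 3 or Klf5KO replicate 3 (0.061 for each). Of the tested genes, 13.2% had a lower fold change than Kdm3a in EgfrKO, 13.1% in Klf5KO and 29.6% in Smad4KO. The order of the means was EgfrKO, Klf5KO, Smad4KO and WT, and no neighbours in that order differed beyond the threshold, nor did any 2 knockouts (adjusted p = 0.97 for EgfrKO against Klf5KO, 0.16 for EgfrKO against Smad4KO and 0.12 for Klf5KO against Smad4KO). The scaled value of Kdm3a was lower in Klf5KO than in Smad4KO by 0.39 (adjusted p = 0.00080) and than in EgfrKO by 0.20 (0.043).

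Its paralogue Kdm3b, which acts on the same mark, did not fall in any of the 3 comparisons. Kdm3b was at 20.04, 19.97 and 21.91 TPM in WT, 23.78, 21.95 and 21.52 in EgfrKO, 35.0, 30.2 and 31.6 in Klf5KO and 24.7, 28.6 and 22.5 in Smad4KO. All Klf5KO libraries were above those of the other genotypes, and all Smad4KO libraries were above WT. Kdm3b rose to 156% of WT in Klf5KO (log2 fold change 0.62 ± 0.09, limma adjusted p = 9.3e-05, and 0.27 with adjusted p = 0.0073 after scaling) and to 122% in Smad4KO (0.27 ± 0.09, adjusted p = 0.024). The latter call was lost after scaling (0.17, adjusted p = 0.065), after quantile normalization (0.14), in a fit of the 2 groups only (adjusted p = 0.051) and without WT replicate 1, WT replicate 2 or Smad4KO replicate 2 (0.067, 0.072 and 0.096). In EgfrKO it was at 109% of WT (adjusted p = 0.32).

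**Figure D1:**
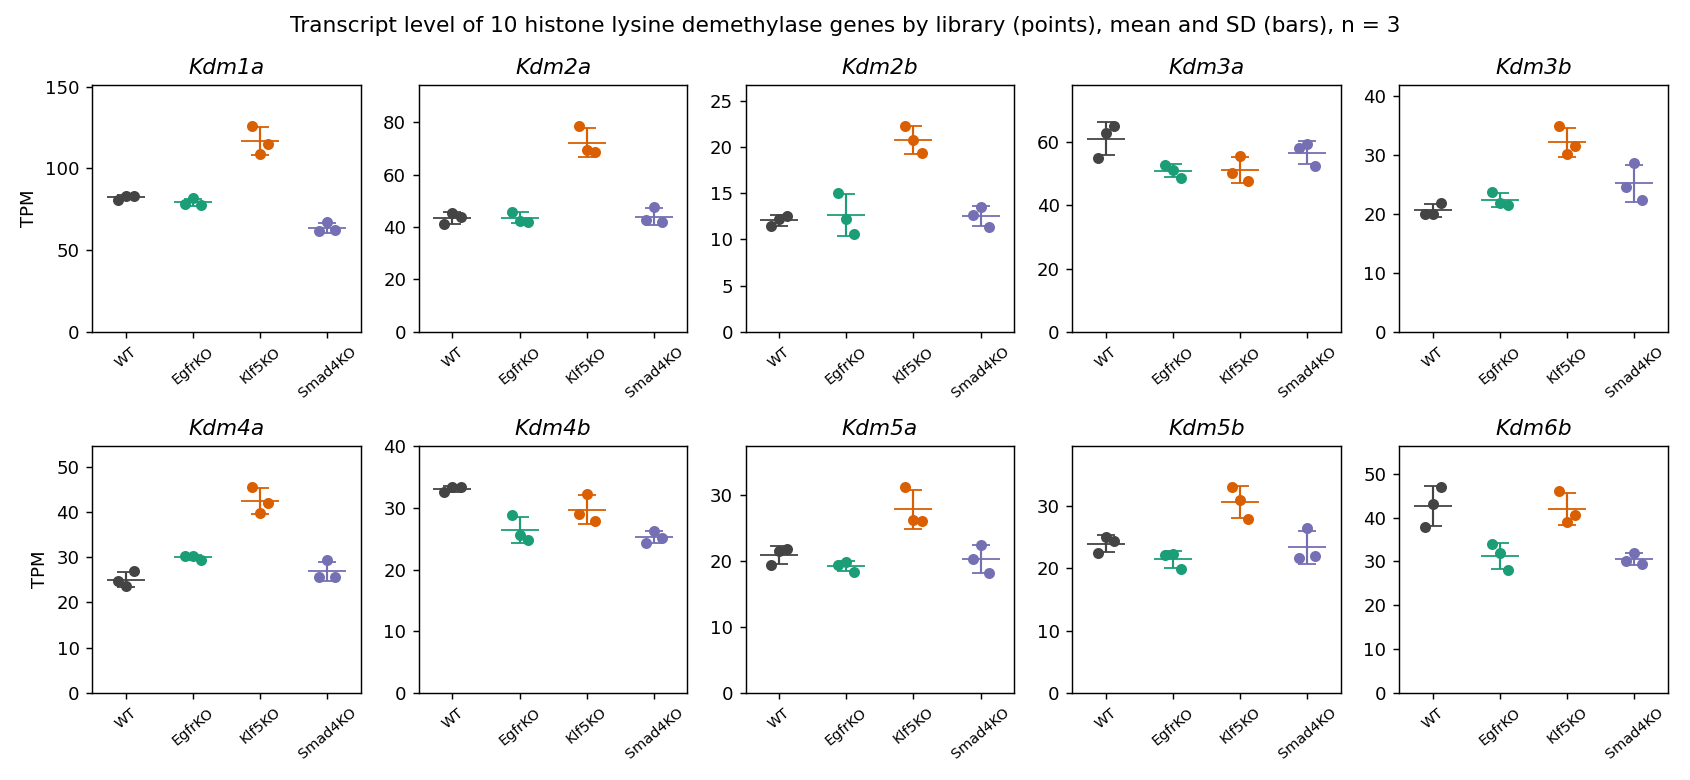
TPM (vertical axis, from 0, a separate scale for each gene) of the 10 demethylase genes in each library, by genotype. Points are libraries, and bars the mean and SD of 3; in Kdm1a, Kdm2a, Kdm2b, Kdm3b, Kdm4a, Kdm5a and Kdm5b the Klf5KO libraries lie above all others, and in Kdm3a, Kdm4b and Kdm6b they do not.

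The ratio of paralogues within a library does not depend on how libraries are scaled. Kdm3a over Kdm3b was 2.75, 3.14 and 2.97 in WT, 2.22, 2.33 and 2.27 in EgfrKO, 1.44, 1.84 and 1.504 in Klf5KO and 2.35, 2.07 and 2.34 in Smad4KO. Every knockout library had a lower ratio than every WT library, and every Klf5KO library a lower ratio than every other. Kdm4b over Kdm4a, a pair that removes trimethylation from H3K9, was 1.32, 1.41 and 1.24 in WT, 0.95, 0.84 and 0.84 in EgfrKO, 0.64, 0.81 and 0.66 in Klf5KO and 0.95, 0.89 and 0.97 in Smad4KO. Kdm4b was the more abundant of the pair in the WT libraries and the less abundant in all 9 knockout libraries. Kdm2a over Kdm2b stayed at means of 3.48 to 3.60, and Kdm5b over Kdm5a at means of 1.104 to 1.155, with WT and each knockout overlapping. For the first 2 ratios the exact two-sided permutation p was 0.1 against each knockout, the smallest that 3 against 3 libraries allow, and 0.2 after adjustment over the 12 tests. For the other 2 ratios it was 0.3 to 0.8. These 4 ratios were chosen after the values had been seen.

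**Figure D2:**
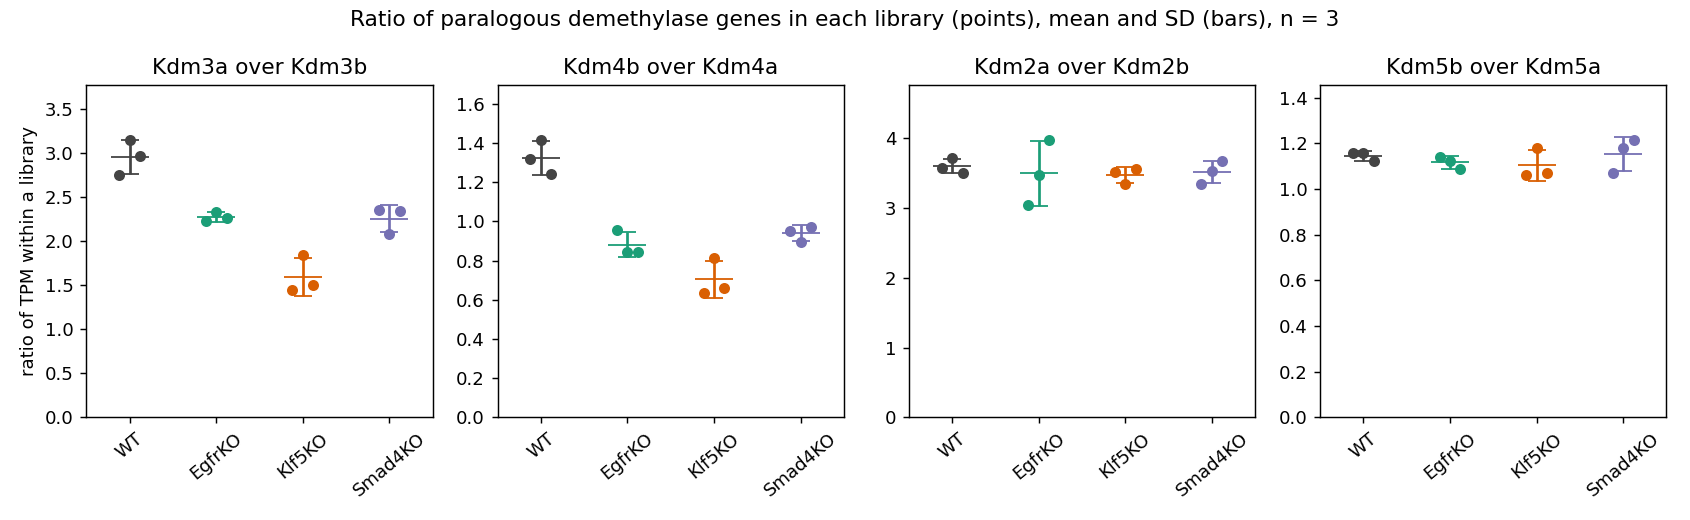
Ratio of TPM of 2 paralogous genes within each library (vertical axis, from 0), by genotype, with the mean and SD of 3 libraries as bars. WT libraries lie above all knockout libraries for Kdm3a over Kdm3b (2.75 to 3.14 in WT) and Kdm4b over Kdm4a (1.24 to 1.41 in WT), and overlap them in the other 2 panels.

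Kdm4b, the second member known to be induced by low oxygen, fell in EgfrKO and Smad4KO. It was at 32.6, 33.4 and 33.4 TPM in WT, 28.9, 25.7 and 24.8 in EgfrKO, 29.0, 32.3 and 27.9 in Klf5KO and 24.4, 26.3 and 25.1 in Smad4KO. All 9 knockout libraries were below all WT libraries. The mean was 79.8% of WT in EgfrKO (log2 fold change -0.32 ± 0.07, limma adjusted p = 0.0041), 76.2% in Smad4KO (-0.38 ± 0.07, adjusted p = 0.00093) and 89.8% in Klf5KO (-0.15 ± 0.07, adjusted p = 0.076). After scaling the 3 values were -0.47, -0.49 and -0.50, all called (adjusted p = 0.00026, 0.00011 and 0.00010). The Klf5KO difference was also called after quantile normalization (-0.47), without the 20 most abundant genes (-0.20) and without Klf5KO replicate 2 (-0.21).

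Kdm4a, a demethylase of trimethylated H3K9 and H3K36, rose in EgfrKO and Klf5KO. It was at 24.69, 23.61 and 26.97 TPM in WT, 30.3, 30.4 and 29.3 in EgfrKO, 45.6, 39.8 and 42.1 in Klf5KO and 25.6, 29.4 and 25.8 in Smad4KO. The EgfrKO and Klf5KO libraries were all above WT, and Smad4KO overlapped it. Kdm4a rose to 169% of WT in Klf5KO (0.74 ± 0.07, adjusted p = 7.2e-06, and 0.39 with adjusted p = 0.00051 after scaling) and to 120% in EgfrKO (0.25 ± 0.07, adjusted p = 0.017). The EgfrKO call was lost after scaling (0.10, adjusted p = 0.23), after quantile normalization (0.13), and without WT replicate 2 or EgfrKO replicate 2 (adjusted p = 0.066 and 0.054). In Smad4KO the difference was 0.10 (adjusted p = 0.30).

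Kdm6b, the H3K27 demethylase, fell in EgfrKO and Smad4KO. It was at 37.8, 43.0 and 47.0 TPM in WT, 33.9, 31.9 and 28.0 in EgfrKO, 46.0, 39.1 and 40.5 in Klf5KO and 30.1, 32.0 and 29.4 in Smad4KO. The EgfrKO and Smad4KO libraries were all below WT, and Klf5KO overlapped it. The mean was 73.4% of WT in EgfrKO (-0.43 ± 0.09, limma adjusted p = 0.0034), 71.6% in Smad4KO (-0.46 ± 0.09, adjusted p = 0.0016) and 98.3% in Klf5KO (-0.02 ± 0.09, adjusted p = 0.85). After scaling the Klf5KO value was -0.37 (adjusted p = 0.0017), and it was -0.32 after quantile normalization. Kdm6b was higher in Klf5KO than in EgfrKO (adjusted p = 0.0029) and in Smad4KO (0.0014), by 0.21 and 0.20 after scaling (0.037 and 0.042).

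Kdm1a, the flavin-dependent H3K4 demethylase, rose in Klf5KO and fell in Smad4KO. It was at 80.8, 83.2 and 83.0 TPM in WT, 78.2, 81.9 and 77.5 in EgfrKO, 126, 109 and 115 in Klf5KO and 61.8, 66.9 and 62.1 in Smad4KO. The Klf5KO libraries were all above, and the Smad4KO libraries all below, every WT and EgfrKO library. Kdm1a rose to 142% of WT in Klf5KO (0.49 ± 0.06, limma adjusted p = 1.9e-05) and fell to 77.2% in Smad4KO (-0.37 ± 0.06, adjusted p = 0.00024). After scaling the values were 0.14 (adjusted p = 0.027) and -0.47 (8.3e-06). The difference between these knockouts was 0.86 ± 0.06 (adjusted p = 1.6e-07), and 0.61 after scaling (7.5e-07). In EgfrKO the difference from WT was -0.06 (adjusted p = 0.45), and -0.21 after scaling (0.0045).

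Kdm2a and Kdm2b, the CpG island-binding H3K36 demethylases, were higher in the Klf5KO-labelled libraries than in each of the other genotypes. Kdm2a was at 41.0 to 47.7 TPM in the 9 libraries of the other genotypes and at 68.7 to 78.5 in Klf5KO, 166% of WT (0.72 ± 0.07, limma adjusted p = 7.0e-06, and 0.37 after scaling with adjusted p = 0.00016). Kdm2b was at 10.6 to 15.1 TPM in those 9 libraries and at 19.3 to 22.3 in Klf5KO, 172% of WT (0.74 ± 0.11, adjusted p = 0.00014, and 0.40 after scaling with adjusted p = 0.0027). Neither passed the threshold against WT in EgfrKO or Smad4KO on the deposited values, with adjusted p of 0.75 to 0.998. After scaling Kdm2a was lower in EgfrKO by 0.15 (adjusted p = 0.041), where the deposited difference was 0.00.

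Kdm5a and Kdm5b, which remove H3K4 methylation at promoters, rose in the Klf5KO-labelled libraries on the deposited values only. Kdm5a was at 18.2 to 22.5 TPM in the 9 libraries of the other genotypes and at 26.1 to 31.3 in Klf5KO (0.40 ± 0.09, limma adjusted p = 0.0025). Kdm5b was at 19.95 to 26.52 TPM and at 27.9 to 33.1 (0.34 ± 0.09, adjusted p = 0.0054). After scaling the Klf5KO values were 0.05 (adjusted p = 0.56) and 0.00 (0.98), and quantile normalization also ended both calls. In EgfrKO both were called lower after scaling, by 0.26 and 0.30 (adjusted p = 0.012 and 0.0067), and not before it (0.33 and 0.20).

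**Figure D3:**
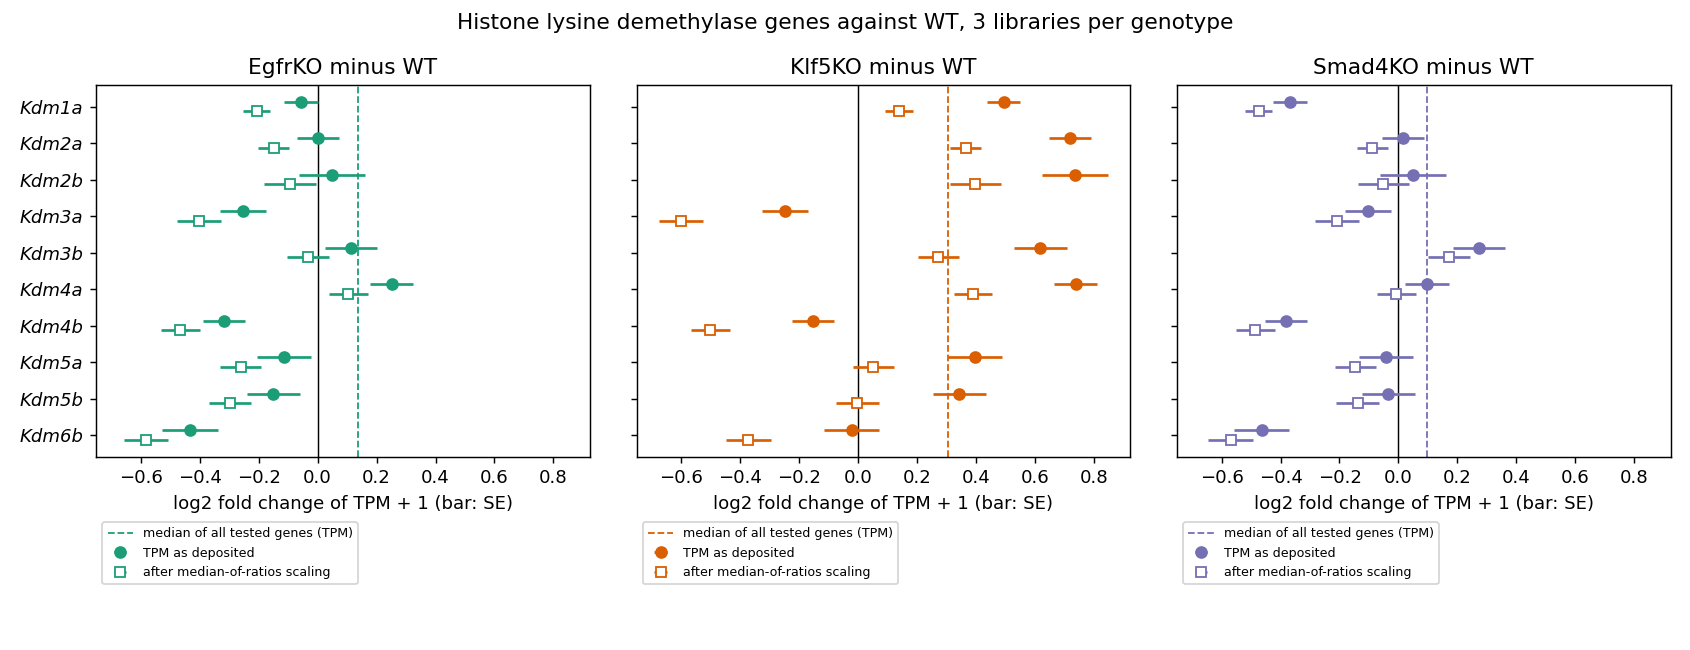
log2 fold change of TPM + 1 against WT (horizontal axis, bar: SE) of each demethylase gene in the 3 knockout labels, on the deposited values (filled circles) and after median-of-ratios scaling (open squares); the dashed line is the median of all 13662 tested genes on the deposited values. In Klf5KO, Kdm3a, Kdm4b and Kdm6b lie below 0 on both scales, and the filled circles of the other 7 genes lie to the right of the dashed line.

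Counted together, 1 member rose and 3 fell in EgfrKO, 7 rose and 1 fell in Klf5KO, and 1 rose and 3 fell in Smad4KO. The members called, in either direction, were 4, 8 and 4 of 10, and 43.3%, 66.3% and 49.6% of all tested genes were called in the same comparisons. By direction, 31.3%, 55.2% and 32.2% of all tested genes were called higher and 12%, 11.1% and 17.4% lower. The libraries of a knockout did not overlap those of WT for 5, 8 and 4 members, against 56.0%, 69.0% and 59.1% of all tested genes. After scaling, when 40.2%, 52.1% and 49.8% of all genes were called, none rose and 7 fell in EgfrKO, 5 rose and 3 fell in Klf5KO, and none rose and 4 fell in Smad4KO, where 22.2%, 27.5% and 24.7% of all genes were called lower and 18.0%, 24.6% and 25.1% higher. The median log2 fold change of the members was -0.09, 0.44 and -0.04 on the deposited values, against 0.14, 0.31 and 0.10 for all genes, and -0.23, 0.10 and -0.14 after scaling. Between knockouts, 8 members (all but Kdm3a and Kdm4b) were lower in EgfrKO than in Klf5KO and none higher, where 55.2% of all genes were called, 40.5% lower and 14.7% higher. In Klf5KO 9 members (all but Kdm3a) were higher than in Smad4KO and none lower, where 63.8% of all genes were called, 45.5% higher and 18.3% lower. Of the members only Kdm1a passed the threshold between EgfrKO and Smad4KO, where it was higher in EgfrKO and 33.2% of all genes were called, 18.7% higher and 14.5% lower. The libraries of the pair did not overlap for 8, 9 and 1 members in these 3 comparisons, against 61.2%, 67.2% and 47.9% of all genes. After scaling 1 member (Kdm3a) was higher and 8 lower in EgfrKO than in Klf5KO, against 26.4% and 25.3% of all genes (51.7% in either direction). Scaled values of 6 members were higher and that of Kdm3a lower in Klf5KO than in Smad4KO, against 29.1% and 31.2% of all genes (60.3% in either direction). Kdm1a was higher and Kdm3b lower in EgfrKO than in Smad4KO after scaling, against 16.5% and 19.6% of all genes (36.1% in either direction).

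The rise in the Klf5KO-labelled libraries ran with transcript length over all genes. Among the 98.5% of tested genes with a length in GENCODE M21, the median log2 fold change in Klf5KO was 0.09 for genes whose longest transcript was up to 2000 bases, 0.30 from there to 4000, 0.41 for lengths of 4001 to 5999, 0.51 for 6002 to 7999 and 0.58 for 8004 and above. In EgfrKO the same medians ran from 0.17 down to 0.04, and in Smad4KO they stayed between 0.06 and 0.12. The longest transcripts of the members span 3028 bases (Kdm1a) to 10944 bases (Kdm5a), and 69.5% of the 6940 tested genes in that range were called higher in Klf5KO, against 7 of 10 members. Kdm3a and Kdm4b, at 4853 and 4577 bases, were at -0.25 and -0.15, and Kdm2b and Kdm4a, at 5180 and 4663 bases, at 0.74 for both. The length classes were chosen after the values had been seen, and the part of transcript length in these differences was not tested.

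**Figure D4:**
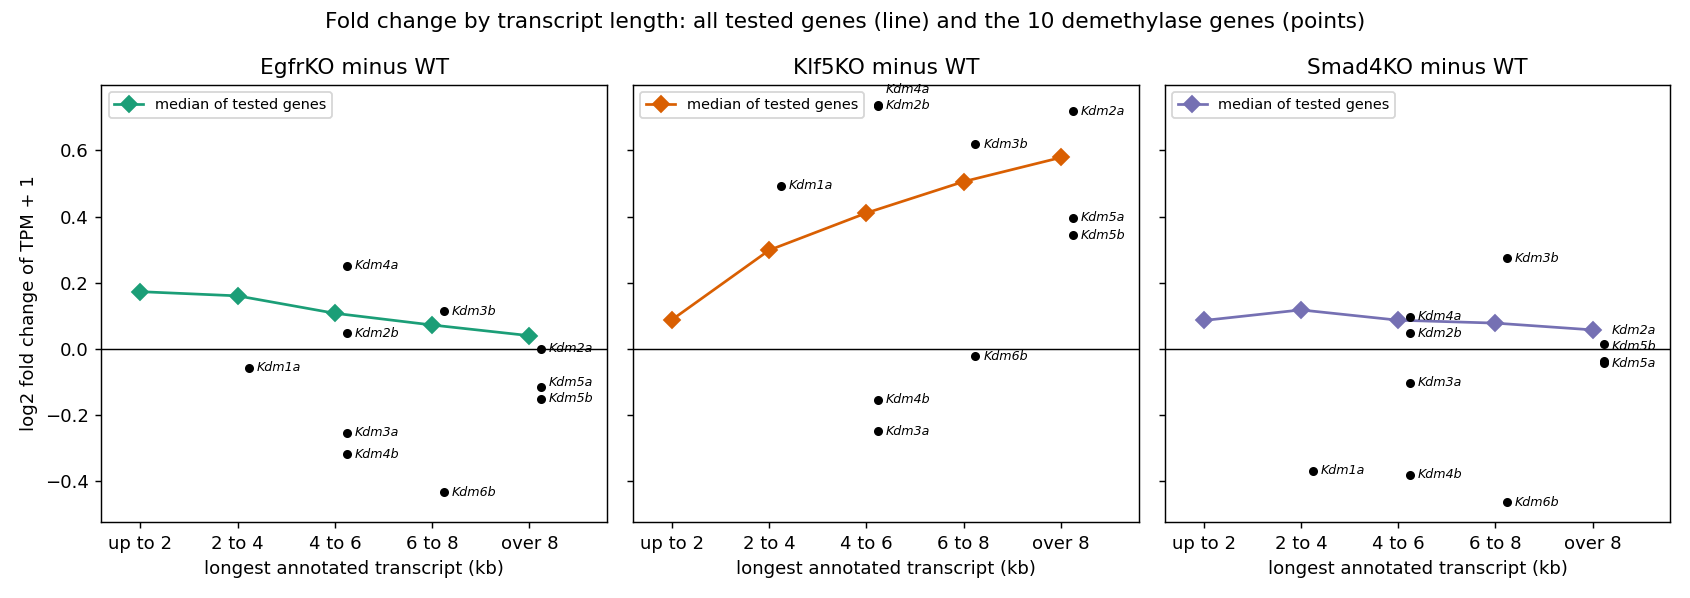
log2 fold change of TPM + 1 against WT (vertical axis) by length of the longest annotated transcript in kb (horizontal axis, classes), with the median of all tested genes in each class as a line and the 10 demethylase genes as points. The line climbs from 0.09 to 0.58 in Klf5KO, where Kdm3a, Kdm4b and Kdm6b lie below 0.

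Markers of other cells also differed between the groups. Among all tested genes 31.3%, 55.2% and 32.2% were called higher in EgfrKO, Klf5KO and Smad4KO, and 12%, 11.1% and 17.4% lower. After scaling 18.0%, 24.6% and 25.1% of all tested genes were called higher and 22.2%, 27.5% and 24.7% lower. In Klf5KO all 7 fibroblast markers rose, with a summed TPM of 284 to 599 against 50.4 to 130 in WT, 113 to 122 in EgfrKO and 46.2 to 72.7 in Smad4KO, and 4 of the 7 were called after scaling. In EgfrKO none of them rose and 1 fell, and in Smad4KO 2 fell, the same counts as after scaling. Of 6 leukocyte markers 3 rose in EgfrKO and 5 in Klf5KO (1 in each after scaling) and 1 fell in Smad4KO, with sums of 97.5 to 175 TPM in WT, 206 to 215 in EgfrKO, 178 to 291 in Klf5KO and 46.6 to 127 in Smad4KO. The leukocyte sums had medians of 116 TPM in WT and 123 in Smad4KO. The 7 macrophage markers were not called in EgfrKO or Klf5KO, and 1 fell in Smad4KO, also after scaling. Their sums ran from 693 to 1406 TPM in WT and 169 to 772 in Smad4KO, with medians of 746 and 765. The ends of 1406 and 169 were those of WT replicate 2 and Smad4KO replicate 2. C1qa, for example, was at 151, 240 and 125 TPM in WT and at 149, 29.9 and 162 in Smad4KO. The macrophage sums were 1171 to 1266 TPM in EgfrKO and 996 to 1601 in Klf5KO. T and NK cell markers summed to 2.46 to 6.02 TPM in WT and 7.87 to 18.7 in the knockouts. Of these 7 markers 5 rose in EgfrKO, 5 in Klf5KO and 3 in Smad4KO, the same counts as after scaling, and none fell. Endothelial markers summed to 2.27 to 2.48 TPM in WT, 6.32 to 8.05 in EgfrKO, 11.7 to 15.3 in Klf5KO and 2.08 to 2.62 in Smad4KO. Of these 5 markers 2 passed the filter on low values. Both rose in EgfrKO and Klf5KO, also after scaling, and neither was called in Smad4KO. No marker was listed at 0 in all libraries of a group. Immediate-early and dissociation stress genes, such as the heat shock gene Hspa1a, summed to 2881 to 3676 TPM in WT and to 1920 to 2062, 1310 to 1981 and 1611 to 1727 in EgfrKO, Klf5KO and Smad4KO, with 9, 10 and 9 of 10 lower (10 in each after scaling). In bulk RNA fewer cells of a type and less RNA per cell cannot be told apart, and the part of these cells and of the stress genes in the demethylase values was not tested.

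Most genes induced by low oxygen fell in the 3 comparisons with WT. Of 13 such genes 12 fell in EgfrKO, 12 in Klf5KO and 11 in Smad4KO, and none rose, with medians of -0.79, -1.01 and -0.74 (-0.95, -1.36 and -0.84 after scaling). Car9, a carbonic anhydrase, went from 198 TPM in WT to 73.1 in EgfrKO and 51.0 in Klf5KO, and was at 233 in Smad4KO (limma adjusted p = 2.3e-05, 1.1e-06 and 0.21). Ndrg1, a stress-response gene, was at 751 TPM in WT and at 328, 272 and 487, and Ero1l, an oxidase of the endoplasmic reticulum, at 155 and at 85.2, 56.2 and 94.7. The genes of HIF and of oxygen sensing did not move as 1 group, with 1 up and 2 down of 8 in EgfrKO, 3 up and 1 down in Klf5KO and 4 up and 2 down in Smad4KO. After scaling the counts were 0 up and 4 down, 1 up and 4 down, and 3 up and 2 down. Hif1a, the oxygen-regulated HIF subunit, fell in EgfrKO (-0.32, adjusted p = 0.0058) and in Smad4KO (-0.62, 4.0e-05) and was at 0.04 in Klf5KO (0.67), where scaling gave -0.32 (0.0027). Epas1, which encodes HIF-2 alpha, rose from 2.01 to 6.07 TPM in Smad4KO (1.23, adjusted p = 8.2e-06). Vhl, part of the ligase that marks HIF for breakdown, rose in Klf5KO (0.47, adjusted p = 1.5e-05, and 0.12 with 0.081 after scaling). The part of low oxygen in the demethylase values was not tested.

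The 5 genes with the pattern nearest to that of Kdm3a over the 12 libraries were named, by the root mean square difference of log2(TPM + 1) after each gene was centred on its own mean, out of 12554 tested genes with a named symbol. They were Zc3h3, a zinc finger gene, at 0.062, Bnip3l, a mitophagy receptor, at 0.064, Pfkl, a phosphofructokinase of glycolysis, at 0.074, Trip10, an adaptor at the membrane, at 0.076, and Prkcd, a protein kinase C, at 0.077. Bnip3l was at 141 ± 11.2 TPM in WT and at 113, 115 and 120 in EgfrKO, Klf5KO and Smad4KO, and Pfkl at 126 ± 7.85 and at 100.3, 110.3 and 112. In the same order Zc3h3 was at 18.8 ± 1.27 TPM and at 17.0, 16.1 and 19.0. Trip10 was at 89.3 ± 1.47 and at 80.3, 78.9 and 88.6, and Prkcd at 58.4 ± 1.86 and at 50.9, 51.0 and 61.8. The Smad4KO mean was thus below WT for Bnip3l, Pfkl and Trip10 and above it for Zc3h3 and Prkcd. Among the other members the nearest to Kdm3a was Kdm4b (0.15), and Kdm2b (0.39) was the farthest. Among all tested genes, ordered from the nearest, Kdm4b stood at rank 405 and Kdm2b at rank 8883.

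Of 16 other demethylase genes 13 passed the filter on low values. Most of those called in Klf5KO rose on the deposited values, where 55.2% of all tested genes were called higher and 11.1% lower. After scaling these shares of all tested genes were 24.6% and 27.5%. In EgfrKO they were 31.3% and 12% (18.0% and 22.2% after scaling), and in Smad4KO 32.2% and 17.4% (25.1% and 24.7%). Of these 13, 4 rose and 2 fell in EgfrKO, 9 rose and 1 fell in Klf5KO and 4 rose and 1 fell in Smad4KO, and after scaling 2 and 7, 2 and 3, and 3 and 5. Kdm1b, the other flavin-dependent demethylase, rose from 5.76 to 10.9 TPM in Klf5KO (0.82 ± 0.09, limma adjusted p = 1.1e-05, and 0.50 after scaling). Hr (hairless), a JmjC corepressor of nuclear receptors, rose from 9.10 to 17.32 TPM in EgfrKO and 18.004 in Smad4KO (0.87 and 0.92, adjusted p = 0.00020 and 7.3e-05), and by 0.39 in Klf5KO (0.014), a value of 0.06 after scaling (0.65). Jmjd6, a JmjC enzyme at 69.0 TPM in WT, was at 57.7, 52.7 and 49.5 TPM in EgfrKO, Klf5KO and Smad4KO and fell in the latter 2 (adjusted p = 0.0075 and 0.0036). After scaling Jmjd6 was called lower in EgfrKO too (-0.40, adjusted p = 0.019). Phf2, an H3K9 demethylase, fell in EgfrKO from 18.2 to 12.7 TPM (-0.48, adjusted p = 0.00050), and Kdm4c, a close relative of Kdm4a and Kdm4b, from 10.8 to 8.36 TPM (-0.33, adjusted p = 0.0049). Riox1, Riox2 and Kdm8, JmjC hydroxylases, were called higher in all 3 comparisons on the deposited values. After scaling Riox2 was called in all 3, Kdm8 in Smad4KO (0.37, adjusted p = 0.043) and Riox1 in none (adjusted p of 0.14 to 0.53). Kdm5c, Kdm6a, Phf8 and Jmjd1c rose in Klf5KO on the deposited values (0.50, 0.37, 0.55 and 0.36), none after scaling, and Kdm7a passed the threshold in none of the 3 comparisons with WT before scaling. After scaling Kdm7a was called lower in EgfrKO (-0.42, adjusted p = 0.0055) and in Klf5KO (-0.26, 0.042). Its scaled mean in Smad4KO was 8.46 TPM, against 10.4 in WT. Kdm4d and the Y-linked Kdm5d and Uty were below the filter, at no more than 0.203 TPM in any library. Kdm5d was at 0.203, 0.132 and 0.090 TPM in the Klf5KO libraries and at 0 in all others. Uty was at 0.091, 0.088 and 0.188 TPM in Klf5KO and at no more than 0.053 in any other library. The source of these Y-linked transcripts was not tested.

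Most genes of the enzymes that write the marks were called higher in the Klf5KO-labelled libraries, as were 55.2% of all tested genes. There 5 of 6 H3K9 methyltransferase genes, 8 of 10 genes of the H3K4 complexes, 7 of 9 of the PRC2 complex and 5 of 5 H3K36 methyltransferases rose and none fell, with medians of 0.47, 0.48, 0.45 and 0.62, and after scaling 3, 5, 4 and 4 rose and 0, 1, 2 and 0 fell. Suv39h1, which places H3K9 trimethylation, had the same order of genotypes as Kdm1a, at 42.8 TPM in WT, 37.2 in EgfrKO, 77.5 in Klf5KO and 24.7 in Smad4KO. It rose in Klf5KO (0.84 ± 0.07, limma adjusted p = 3.3e-06) and fell in Smad4KO (-0.77 ± 0.07, 6.3e-06), and after scaling the values were 0.49 and -0.88. Setdb1, another H3K9 methyltransferase, rose in all 3 comparisons (0.38, 0.52 and 0.35), also after scaling (0.24, 0.18 and 0.25). Kmt2a and Setd1b, H3K4 methyltransferases, rose in Klf5KO by 0.88 and 0.79, and Ezh2 and Suz12, core subunits of PRC2, by 0.53 and 0.56, all 4 also called after scaling. In EgfrKO 1, 1, 4 and 0 genes of these lists rose and none fell, and in Smad4KO 2, 1, 2 and 0 rose and 1, 0, 1 and 0 fell. After scaling 1, 0, 2 and 0 rose and 1, 2, 3 and 3 fell in EgfrKO, and 1, 1, 1 and 0 rose and 2, 0, 2 and 1 fell in Smad4KO. Among all tested genes 31.3% were called higher and 12% lower in EgfrKO, and 32.2% and 17.4% in Smad4KO. After scaling these shares were 18.0% and 22.2% in EgfrKO, 24.6% and 27.5% in Klf5KO, and 25.1% and 24.7% in Smad4KO.

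Partners of Kdm1a and Kdm2b were followed too. Of all tested genes 55.2% were called higher and 11.1% lower in Klf5KO (24.6% and 27.5% after scaling). In EgfrKO 31.3% of all tested genes were called higher and 12% lower on the deposited values, and in Smad4KO 32.2% and 17.4%. After scaling these shares were 18.0% and 22.2% in EgfrKO, and 25.1% and 24.7% in Smad4KO. Of 11 genes of the CoREST complex, the partners of Kdm1a, 8 rose and none fell in Klf5KO (4 and 2 after scaling), 3 rose and none fell in EgfrKO (1 and 2 after scaling), and 3 rose and 2 fell in Smad4KO (2 and 3 after scaling). Hdac2, a histone deacetylase of that complex, was at 69.4 TPM in WT, 80.3 in EgfrKO, 109 in Klf5KO and 59.2 in Smad4KO, and passed the threshold in each comparison (0.21, 0.65 and -0.22, limma adjusted p = 0.027, 9.8e-06 and 0.017). After scaling the EgfrKO value was 0.06 (0.40). Of 9 genes of PRC1.1, the Polycomb complex that Kdm2b brings to CpG islands, 7 rose and none fell in Klf5KO (2 and 2 after scaling), 3 rose and 2 fell in EgfrKO (0 and 3 after scaling), and 3 rose and 3 fell in Smad4KO (2 and 4 after scaling). Bcor, a core subunit, rose from 7.02 to 13.7 TPM in Klf5KO, 8.95 in EgfrKO (a call lost after scaling, adjusted p = 0.053) and 10.3 in Smad4KO, and Rybp fell from 36.8 to 27.8 TPM in EgfrKO and 24.7 in Smad4KO. Of 10 enzymes that make or use 2-oxoglutarate, succinate or fumarate, the co-substrate and products or inhibitors of JmjC enzymes, 7 rose in EgfrKO, 7 in Klf5KO and 10 in Smad4KO and none fell, and after scaling 5 rose and 1 fell, 2 rose and 2 fell, and 9 rose. In Smad4KO Sdha, a subunit of succinate dehydrogenase, rose from 111 to 192 TPM (adjusted p = 6.8e-07) and Fh1, fumarate hydratase, from 40.9 to 68.0 TPM (5.8e-07).

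**Figure D5:**
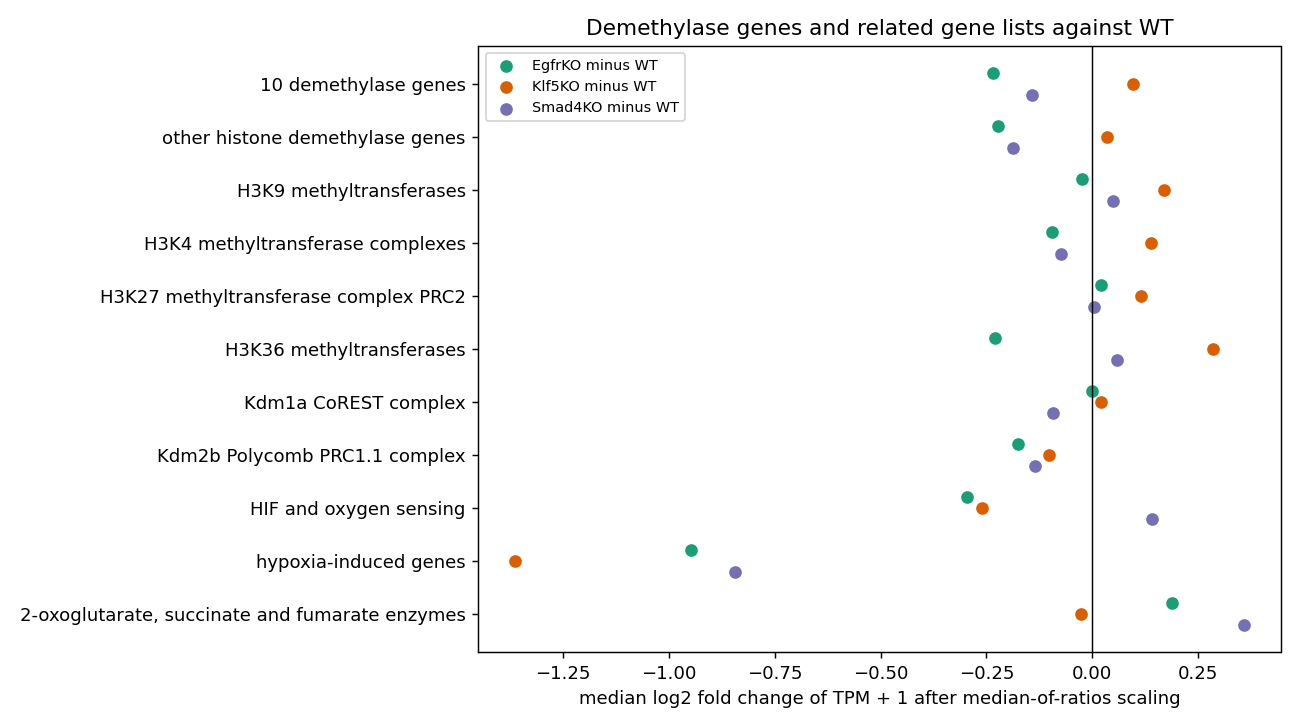
Median log2 fold change of TPM + 1 against WT after median-of-ratios scaling (horizontal axis) of the 10 demethylase genes and of each related gene list (vertical axis), with a point for each knockout label. Hypoxia-induced genes lie farthest from 0 of the lists shown, at -0.95, -1.36 and -0.84, and the demethylase genes at -0.23, 0.10 and -0.14, for EgfrKO, Klf5KO and Smad4KO.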

How the data were processed

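A table of TPM values, 1 row per gene symbol and 1 column per library, was deposited by the authors. Salmon and mm10 are named in the submitters' processing notes, while the Salmon version, the annotation and how transcripts were summed to genes are not stated in the sources used. Read depth cannot be read from TPM, which leaves sequencing depth unknown, and counting intervals are not given.

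Columns were matched to samples by name. The log2 of TPM plus a pseudocount of 1, which understates changes of low genes, was fitted for 13662 genes (a minimum TPM of 1 in 3 or more libraries) with limma 3.58.1 in R 4.3.3, in 1 model of 4 genotype means with eBayes and a trend. Tests were two-sided, and p-values were adjusted by the method of Benjamini and Hochberg within each of 6 contrasts, at a threshold of 0.05. The members and lists were chosen with earlier results of these data known, so no count is independent support, and no test was run on a list. Genes named are the members, the other demethylase genes, Egfr, Klf5 and Smad4, up to 3 genes of each list with the smallest adjusted p, the 5 genes nearest to Kdm3a and cell type markers; Hspa1a was chosen as an example after its values were seen. The fit was also run on simulated data with independent noise and no shift of all genes, so that run does not bear on the shift seen here. Same-numbered libraries of a knockout and WT did not deviate together, so the numbers were not taken as pairs.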

Additional observations from a re-analysis of the deposited data

Results flagged for a closer look

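Kdm1a differed between 2 knockouts whose effects against WT had opposite signs. It was higher in Klf5KO than in Smad4KO by 0.86 on the log2(TPM + 1) scale (limma adjusted p = 1.6e-07), being 0.49 above WT in the former and -0.37 from WT in the latter. The difference was tested as a contrast of its own. All 3 Klf5KO libraries were above, and all 3 Smad4KO libraries below, the WT libraries on the deposited values. The median of all tested genes in Klf5KO against WT was 0.31 on these values. After median-of-ratios scaling Kdm1a was 0.14 above WT in Klf5KO (limma adjusted p = 0.027), and the 2 signs were still opposite.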

How the results depend on the processing

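The fits were repeated with 10 other settings and without each of the 12 libraries in turn. No member difference called on the deposited values changed sign, except 2 after median-of-ratios scaling, which removes the shift of all genes by its construction, while differences that were not called changed sign around 0 under several settings. The scaling gave -0.15 for Kdm2a in EgfrKO against WT, 0.20 for Kdm3a in EgfrKO against Klf5KO, -0.015 for Kdm4b in Klf5KO against Smad4KO, -0.0020 for Kdm5b in Klf5KO against WT and, for the targeted gene Smad4, -0.015 in Klf5KO against WT. It also gave -0.21 for Kdm3a in Smad4KO against WT, which then passed the threshold, 7 members called in EgfrKO against WT and 2 in EgfrKO against Smad4KO. Without a single library, Kdm3a ranged from -0.32 to -0.21 in EgfrKO and from -0.32 to -0.20 in Klf5KO, and the members called ranged from 2 (without WT replicate 2 or EgfrKO replicate 2) to 4 in EgfrKO against WT and from 1 to 2 (without Smad4KO replicate 2) in EgfrKO against Smad4KO. Of the genes of the related lists, 18 to 21 were called in EgfrKO against Smad4KO without 1 library and 29 with all, the fewest without EgfrKO replicate 3 or Smad4KO replicate 2; the cause was not tested. Same-numbered libraries of a knockout and WT deviated from their group means with correlations of -0.149 to 0.0376 over genes, and the replicate block gave 4, 8 and 4 members called against WT, as without it, and 5797, 9008 and 6627 of all genes (5920, 9054 and 6781 without it). Depth, unknown here, and 3 libraries a group limit the precision.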
